A study of Mus musculus with 48 samples.

Results

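Gene expression in the hippocampus of wild-type (WT) male mice was compared between postnatal day 5 (P5) and 6 weeks of age (6W). The comparison used every hippocampus sample labelled WT at these ages, 4 at 6W and 4 at P5, which are 8 of the 48 samples in the series. The series was made to study mice without alkyladenine DNA glycosylase (Aag, encoded by Mpg), an enzyme that removes alkylated bases from DNA. It also holds Aag knockout (KO) hippocampus and the prefrontal cortex of both genotypes, and an older age of 4 to 6 months (6M), in 12 groups of 4 samples. The WT mice carry no engineered allele and received no treatment that the labels name. Their strain is not given in the sources used here. The design text gives 4 animals per time point, and the labels do not say whether hippocampus and prefrontal cortex with the same number came from the same animal. Poly(A)-selected RNA of whole tissue was sequenced, so a lower level of a marker can stand for fewer cells of a type or for less RNA per cell, and these cannot be told apart here.

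The first weeks after birth are the period in which the rodent hippocampus is wired. At the end of the first postnatal week the dentate gyrus is still being filled with new granule cells, pyramidal cells are extending axons and dendrites, and glial precursors divide. In the following weeks synapses form and are pruned, inhibition matures, oligodendrocytes wrap axons in myelin, and neurogenesis narrows to a small niche beneath the granule cell layer.

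Total counts ranged from 24039024 to 28906072 in the P5 samples and from 21615824 to 29576938 in the 6W samples, and a floor of 3 counts corresponded to 0.101 to 0.139 counts-per-million (CPM) units across them. The 6W sample of replicate 1 had 31.6% of its counts on mitochondrial genes, against 15.7% to 18.8% in the other 6W samples and 10.6% to 12.5% at P5. It also had the highest summed level of oligodendrocyte, astrocyte and microglia markers of the 4. Replicate 1 had the highest mitochondrial share of its group at 6M in WT hippocampus too (31.4%), and at 6W (28.1%) and 6M (24.1%) in KO hippocampus. In WT at 6M it was also the highest for the summed astrocyte and microglia markers. Transcripts of the choroid plexus, a neighbouring epithelium, varied by sample: the 12 marker genes summed to 7615, 7644, 2017 and 3895 CPM in P5 replicates 1 to 4 and to 85.2, 69.4, 111 and 1252 CPM in 6W replicates 1 to 4. Ttr gave most of the sum at P5, and the other 11 genes summed to 272, 294, 87.7 and 159 CPM at P5 and to 40.2, 52.5, 55.1 and 189 CPM at 6W, where replicate 4 lay within the P5 range. Without 6W replicate 1, 10261 of the 11024 genes called below were called again, each in the same direction. The granule cell regulator Prox1, a marker of the hippocampus, was present in every sample, with 209 ± 16.6 CPM at P5 and 231 ± 40.6 CPM at 6W (SD, n = 4 each).

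**Figure D1:**
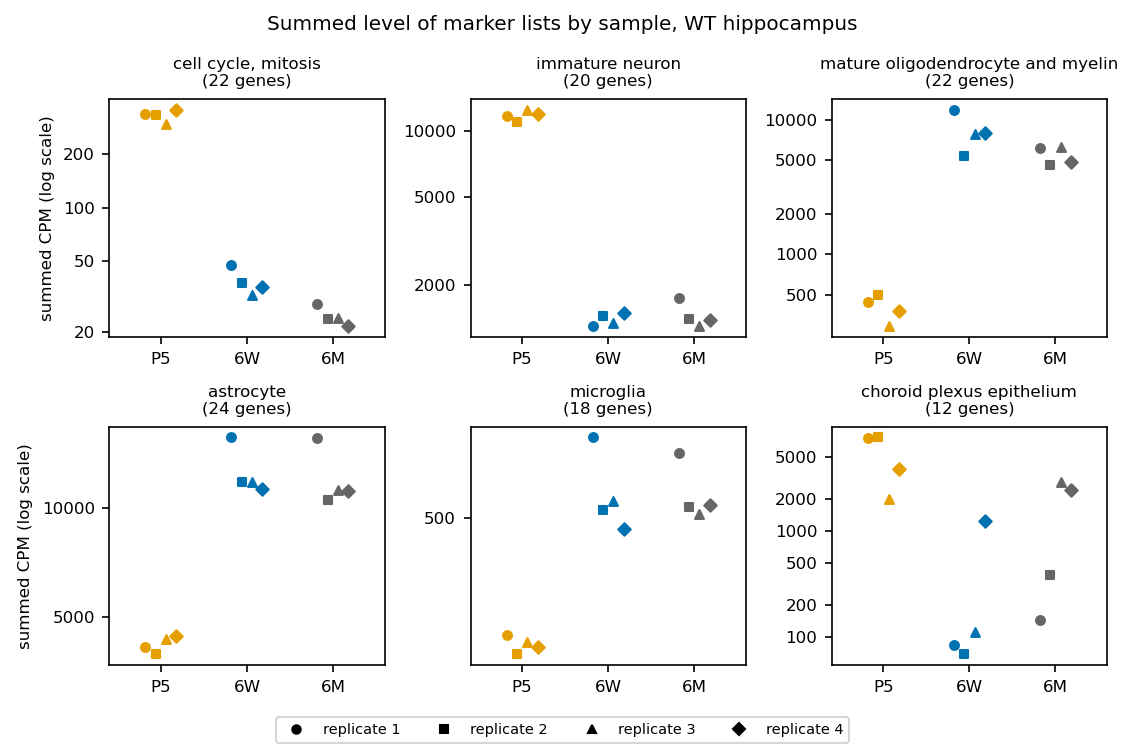
Summed CPM of 6 marker lists (log scale) in each WT hippocampus sample at P5, 6W and 6M, with the marker shape giving the replicate number. The mitosis and immature neuron lists lie lower in every 6W sample than in every P5 sample, the myelin, astrocyte and microglia lists lie higher, and the choroid plexus list spreads from 69.4 to 1252 CPM among the 6W samples.

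Of 17786 genes tested with edgeR's quasi-likelihood test, 11024 (62%) were called at an adjusted p-value under 0.05. Of all tested genes 31.4% rose (5580) and 30.6% fell (5444), and the median log2 fold change was 0.02. Fold changes are given on the log2 scale, 6W against P5. A rise of at least 2-fold was fitted for 2387 called genes (13.4%) and a fall of at least 2-fold for 2281 (12.8%). For 9195 of the called genes the 4 P5 and 4 6W values did not overlap, and over all tested genes the 4 and 4 values were wholly higher at 6W in 26.4% and wholly lower in 26.7%. Among transcript classes, protein-coding genes were split almost evenly, with 4722 that rose and 4953 that fell. Of the long intergenic noncoding RNAs 231 rose and 129 fell, and of the processed pseudogenes 43 rose and 102 fell. Reads of processed pseudogenes can come from their parent genes, so those calls are uncertain.

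The largest rises among well-expressed genes (mean log2 CPM of 5 or more) included products of the oligodendrocyte. Mobp, a protein of compact myelin, rose by 8.66 on the log2 scale, Mbp, the myelin basic protein, by 5.57 and Ugt8a, which makes the myelin lipid galactosylceramide, by 4.00. Also among them were Ano3, a scramblase of the anoctamin family (4.60), Cntnap1, the axonal Caspr protein beside the node of Ranvier (4.15), the actin-associated Fam107a (3.95), Plekhb1 (3.77), Lgi3 (3.66), the Ras exchange factor Rasgrf1 (3.62), the postsynaptic scaffold Tanc1 (3.61) and the dendritic protein dendrin, Ddn (3.53). The 12 largest falls were taken among genes whose mean log2 CPM was 5 or more and whose ages did not overlap. Some genes under that limit fell further. Among the 12, Dcx, Cd24a, Dpysl3, Dpysl5, Tubb2b and Sox11 are in the immature neuron list and Fabp7 is in the progenitor list. The 12 were Trim67 (-5.48), the microtubule protein doublecortin, Dcx (-5.10), the surface protein Cd24a (-5.01), the collapsin response mediators Dpysl3 (-4.89) and Dpysl5 (-4.76), the adhesion protein Cxadr (-4.60), the matrix protein tenascin C, Tnc (-4.25), the choroid plexus product Ttr (-4.11), the radial glia lipid-binding protein Fabp7 (-4.03), the beta tubulin Tubb2b (-3.81), Nrep (-3.51) and the transcription factor Sox11 (-3.20). Ttr is itself one of the choroid plexus markers summed above, and its call (edgeR adjusted p = 0.0304) was lost when any of 4 single samples was left out, with an adjusted p of up to 0.0766.

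**Figure D2:**
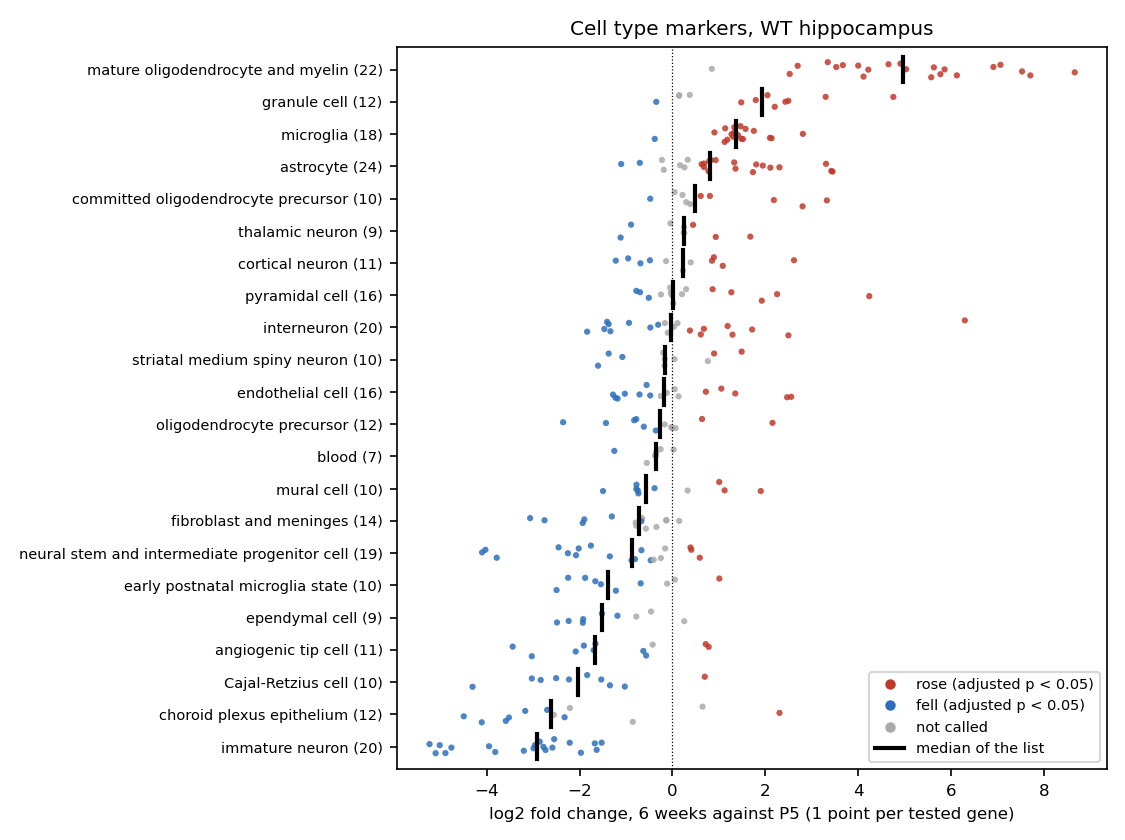
Log2 fold change from P5 to 6W of every tested member of 22 cell type marker lists, ordered by the list's median (black bar), with the number of tested genes in brackets. The myelin list lies farthest to the right, with a median of 4.97, and the immature neuron list farthest to the left, with a median of -2.91.

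Cell division transcripts fell together. All 22 tested mitosis genes fell, against 30.6% of all tested genes, with a median log2 fold change of -3.22, and 21 of 22 DNA replication genes fell, with a median of -1.44. Mki67, which encodes the proliferation antigen Ki-67, read 77.9, 95.97, 77.1 and 87.2 CPM in the P5 samples and 8.87, 5.90, 5.46 and 7.41 CPM in the 6W samples. Cdk1, the kinase that drives entry into mitosis, read 12.5, 8.75, 10.4 and 12.8 CPM at P5 and 0.892, 0.603, 0.531 and 0.580 CPM at 6W. For both genes every 6W sample lay under every P5 sample. The log2 fold changes were -3.61 ± 0.15 (SE) for Mki67 (edgeR adjusted p = 2.78e-17) and -4.10 ± 0.27 for Cdk1 (edgeR adjusted p = 3.64e-13). Means at 6M were 2.77 and 0.417 CPM. The exception in the replication list was Ccne1, cyclin E1, which rose by 0.85. Of 16 genes that govern exit from the cycle 10 fell, among them the inhibitor Cdkn1c (-2.52) and the G1 kinase Cdk6 (-2.19), and 3 rose, among them the retinoblastoma relative Rbl2 (0.54) and cyclin D1, Ccnd1 (0.58).

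Mitotic genes are known to share promoter elements for cell cycle repressors, the cell cycle genes homology region (CHR) and the CCAAT box, and replication genes to share E2F sites. RefSeq promoter windows on GRCm38.p6, from 250 bases before to 50 after the start, were searched on both strands for TTTGAA (CHR), CCAAT, and the E2F sites TTTGGCGC and TTTCCCGC. Windows were found for 18 of the 22 mitosis genes, and 13 of these 18 windows (72.2%) held a CHR, against 17.9% of all 32851 windows and 12.2% of the windows of tested genes. All 13 also held a CCAAT box, a combination present in 6.95% of all windows. For the replication genes 19 windows of 17 genes were found, and E2F sites were in 7 of them (36.8%), in 0 of the 18 mitosis windows and in 1.56% of all windows. A CCAAT box, with or without a CHR, was in 14 of the 19 replication windows (73.7%) and 16 of the 18 mitosis windows (88.9%). Of all windows 37.4% held one. The 4 mitosis genes with the largest falls among those whose windows held both elements are shown because their starts carry the shared letters, with CHR and CCAAT matches on either strand in capitals.
Cdk1 (chr10:69352863-69353162, minus strand): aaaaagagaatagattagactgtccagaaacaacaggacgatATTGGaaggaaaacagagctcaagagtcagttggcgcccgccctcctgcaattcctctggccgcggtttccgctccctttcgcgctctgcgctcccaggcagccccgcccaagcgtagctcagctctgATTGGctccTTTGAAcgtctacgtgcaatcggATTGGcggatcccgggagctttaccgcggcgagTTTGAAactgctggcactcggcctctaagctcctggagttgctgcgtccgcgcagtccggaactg
Cdc20 (chr4:118437294-118437593, minus strand): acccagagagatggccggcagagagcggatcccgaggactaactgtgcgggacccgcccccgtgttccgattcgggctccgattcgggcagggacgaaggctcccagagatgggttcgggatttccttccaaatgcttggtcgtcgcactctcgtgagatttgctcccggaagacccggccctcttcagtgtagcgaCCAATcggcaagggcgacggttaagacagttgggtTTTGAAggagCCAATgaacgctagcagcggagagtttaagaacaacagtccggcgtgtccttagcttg
Ube2c (chr2:164769679-164769978, plus strand): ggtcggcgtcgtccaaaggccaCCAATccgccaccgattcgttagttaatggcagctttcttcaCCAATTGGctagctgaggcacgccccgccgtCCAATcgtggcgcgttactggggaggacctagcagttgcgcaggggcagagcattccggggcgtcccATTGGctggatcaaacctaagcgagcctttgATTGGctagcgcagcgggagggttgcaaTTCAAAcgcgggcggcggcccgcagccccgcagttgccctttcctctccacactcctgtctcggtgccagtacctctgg
Plk1 (chr7:122159185-122159484, plus strand): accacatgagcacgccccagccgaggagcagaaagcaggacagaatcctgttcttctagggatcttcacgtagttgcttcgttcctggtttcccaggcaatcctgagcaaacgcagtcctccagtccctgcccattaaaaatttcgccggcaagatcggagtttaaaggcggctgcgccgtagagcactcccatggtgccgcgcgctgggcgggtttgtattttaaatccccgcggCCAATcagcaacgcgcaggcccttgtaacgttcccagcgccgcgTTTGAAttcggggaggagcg
In Cdk1 the first CHR match lies 71 bases before the start, in Cdc20 it lies 18 and in Ube2c 29 bases before it, and in Plk1 it lies 30 bases after it. For the replication genes the E2F match is in capitals in the 2 members with the largest falls among those that held one.
Cdt1 (chr8:122567765-122568064, plus strand): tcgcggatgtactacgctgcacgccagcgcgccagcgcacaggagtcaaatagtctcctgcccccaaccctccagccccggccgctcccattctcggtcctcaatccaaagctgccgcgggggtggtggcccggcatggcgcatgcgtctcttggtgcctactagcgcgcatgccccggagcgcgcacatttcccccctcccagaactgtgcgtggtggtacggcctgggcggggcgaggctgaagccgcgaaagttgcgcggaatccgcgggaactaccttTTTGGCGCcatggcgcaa
Cdc6 (chr11:98907901-98908200, plus strand): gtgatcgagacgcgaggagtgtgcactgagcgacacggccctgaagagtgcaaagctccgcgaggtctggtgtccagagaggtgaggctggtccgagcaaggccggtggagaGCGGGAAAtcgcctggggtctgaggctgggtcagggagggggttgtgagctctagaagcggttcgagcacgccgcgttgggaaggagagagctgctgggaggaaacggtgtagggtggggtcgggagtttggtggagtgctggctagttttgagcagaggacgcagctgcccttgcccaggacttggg
Cdc20, the activator of the anaphase-promoting complex, had a log2 change of -3.91, Ube2c, the ubiquitin-conjugating enzyme of that complex, of -3.86, and the mitotic kinase Plk1 of -3.64. Cdt1 and Cdc6, which load the replicative helicase, had log2 changes of -2.19 and -2.11. A match describes letters in a window, and binding was not measured.

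Progenitor markers were mostly lower at 6W. Of 19 tested stem and intermediate progenitor markers 13 fell and 3 rose, or 1 rose without P5 replicate 2 or 3. Eomes (Tbr2), which marks intermediate progenitors of the granule cell lineage, read 14.1, 12.7, 10.3 and 13.7 CPM at P5 and 1.04, 0.560, 0.387 and 1.57 CPM at 6W, without overlap, a log2 change of -3.78 ± 0.45 (edgeR adjusted p = 3.45e-08). Fabp7 of radial glia read 341, 333, 317 and 438 CPM at P5 and 27.5, 26.5, 15.5 and 18.3 CPM at 6W, and these did not overlap. Tfap2c (-4.10) and the proneural gene Neurog2 (-2.45) fell as well, whereas Hopx, which adult quiescent stem cells share with astrocytes, rose (0.59). The stem cell factor Sox2 read 18.04 ± 2.64 CPM at P5 and 16.3 ± 4.92 CPM at 6W (SD, n = 4 each) and was not called. Of the signalling pathways that act on progenitors, 19 of 26 Notch, Wnt and sonic hedgehog genes fell, led by the Wnt antagonist Sfrp1 (-2.28), the Notch effector Hes5 (-2.25), the Notch ligand Dll1 (-1.91) and the Wnt receptor Fzd1 (-1.81), and 4 rose, among them Dkk3 (2.25) and Hey1 (0.95).

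Markers of young neurons fell. All 20 tested immature neuron markers fell, with a median log2 fold change of -2.91. Doublecortin (Dcx, ENSMUSG00000031285, GENCODE M21 on GRCm38 chromosome X, 143855842 to 143933311), which bundles microtubules in migrating neurons, read 1714, 2128, 1959 and 1961 CPM at P5 and 63.9, 56.6, 54.3 and 51.9 CPM at 6W. Every P5 sample was above every 6W sample, and the fitted change was -5.10 ± 0.21 on the log2 scale (edgeR adjusted p = 3.36e-17). Its level at 6M was 52.5 ± 23.6 CPM (SD, n = 4). Sox11, a transcription factor of newborn neurons, read 189.7, 221, 194 and 219 CPM at P5 and 25.6, 19.1, 23.3 and 21.8 CPM at 6W, also without overlap. Draxin, a repulsive axon guidance protein, fell by 5.23 on the log2 scale.

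Cytoskeletal genes moved in both directions. Of 13 tested tubulins 10 fell and 3 rose, against 30.6% and 31.4% of all tested genes. Tubb2b, a beta tubulin of growing axons, read 1246, 932, 1218 and 1185 CPM at P5 and 100.1, 76.8, 76.6 and 72.1 CPM at 6W, with no overlap. Tuba1a, the alpha tubulin of migrating neurons, fell from 2945 ± 316 to 542 ± 63.5 CPM (SD, n = 4 each), and Tubb3 (-2.78), Tubb5 (-2.49), Tubb6 (-2.74) and Tuba1c (-2.38) fell too. In the opposite direction, Tuba4a, an alpha tubulin of mature axons, read 125, 92.03, 135 and 118 CPM at P5 and 454, 449.9, 494 and 449 CPM at 6W, so that every 6W sample was higher. Tuba8 rose by 2.39 and the myelin-rich Tubb4a by 0.56. Per kilobase of annotated exon, Tuba1a led Tuba4a with 1633 against 31.7 CPM at P5, and at 6W it was still ahead, with 301 against 125 CPM. Among 21 microtubule-associated proteins and neurofilaments 11 fell, including tau, Mapt (1568, 1323, 1682 and 1377 CPM at P5 and 256, 291, 294 and 293 CPM at 6W). Tubulin genes are close in sequence, and reads that fit several of them make single values uncertain. The 7 that rose included the heavy neurofilament Nefh (2.21), the motor Kif5a (1.94), Map1a (1.72) and the light neurofilament Nefl (1.16).

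Axon guidance genes fell more often than they rose, with 21 of 32 lower and 8 higher at 6W and a median of -0.69. The semaphorin receptor Plxna3 (-2.43), the ephrin receptor Ephb2 (-2.06), the semaphorin Sema3f (-1.70) and the netrin receptor Dcc (-1.62) fell most, and Slit1 (1.45), the netrin receptor Unc5b (1.41), Epha7 (1.19) and Epha6 (0.90) rose most.

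Most oncofetal and imprinted genes of fetal growth fell. Of 10 tested oncofetal RNA-binding and chromatin proteins 8 fell and 0 rose. Igf2bp3, a binder of growth factor messengers, read 4.18, 3.91, 3.96 and 5.96 CPM at P5 and 0.149, 0.0431, 0.0483 and 0.137 CPM at 6W, where its largest count in a library was 4. The imprinted noncoding RNA H19 read 3.86, 5.19, 5.79 and 3.77 CPM at P5 and 0.149, 0.0431, 0 and 0.137 CPM at 6W, with at most 4 counts in a 6W library. Both genes were at or near the floor of 3 counts at 6W, so no fold is given. Among 16 imprinted growth genes 10 fell, including Zim1 (-3.23), Igf2 (-2.75) and Nnat (-2.58), and 3 rose, including Peg3 (0.65), with 1 rise left when 6W replicate 2 or P5 replicate 2 was left out. The insulin-like growth factor list was near the background of 31.4% rises and 30.6% falls. Of 12 genes 5 fell and 4 rose, with a median of -0.15, and 2 rose when 6W replicate 1 or P5 replicate 4 was left out. The falls were led by the binding proteins Igfbp2 (-2.57) and Igfbp3 (-1.97) and by Igf1 (-1.54), and Igfbp6 (2.48) and the adaptor Irs2 (0.59) were among the rises. Igf2 and Igfbp2 are also made by choroid plexus and meninges, whose summed markers were on average higher in the P5 samples, and their part in these changes was not tested.

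Most granule cell markers rose. In the granule cell list 8 of 12 genes rose, with a median of 1.92, and 1 fell, a call lost when any of 5 single samples was left out. C1ql2, a synaptic organizer of the mossy fibres, read 0.811, 0.796, 0.786 and 1.05 CPM at P5 and 30.2, 18.6, 25.4 and 20.1 CPM at 6W, and Calb1, the calcium buffer of mature granule cells, read 57.6, 64.3, 61.8 and 69.9 CPM at P5 and 154, 203, 185 and 167 CPM at 6W. Every 6W sample was above every P5 sample for both, and the log2 changes were 4.76 ± 0.19 (edgeR adjusted p = 1.79e-17) and 1.48 ± 0.11 (edgeR adjusted p = 4.00e-12). Dsp, which encodes desmoplakin, rose by 3.30 and the granule cell kinase gene Plk5 by 2.50. Of 16 pyramidal cell markers 5 rose and 3 fell, with a median of 0.00, and the share that rose was near the 31.4% over all tested genes. The granule and pyramidal cell lists were not tested against each other. The protease inhibitor gene Spink8 (4.24), Dkk3 (2.25), the CA1 gene Wfs1 (1.92) and the mineralocorticoid receptor gene Nr3c2 (1.27) rose, and Nectin3 (-0.70) and the transcription factor Zbtb20 (-0.51) fell.

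Interneuron genes were called in both directions. Of 20 tested interneuron genes 8 rose and 8 fell, with a median of -0.03, not far from the shares of 31.4% and 30.6% over all tested genes. Pvalb, the calcium buffer parvalbumin of fast-spiking basket cells (ENSMUSG00000005716, chromosome 15, 78191114 to 78206400 on GRCm38), read 0.4217, 0.415, 0.321 and 0.269 CPM at P5 and 27.99, 29.99, 26.1 and 29.05 CPM at 6W. Every 6W sample was far above every P5 sample, with a log2 change of 6.30 ± 0.20 (edgeR adjusted p = 8.75e-20). The neuropeptide gene Vip rose by 2.50, the potassium channel gene Kcnc1 by 1.72 and the GABA-making enzyme gene Gad1 by 1.29. Lhx6, the transcription factor of interneurons from the medial ganglionic eminence, moved the other way, from 72.8, 55.8, 72.2 and 59.8 CPM at P5 to 14.4, 20.8, 16.7 and 20.9 CPM at 6W. Dlx1 (-1.47), Calb2 (-1.41) and Dlx5 (-1.37) also fell. Cajal-Retzius cells, transient neurons of the marginal zone that guide layering through reelin, were represented by 10 genes, of which 9 fell and 1 rose. Their reelin gene Reln read 255, 312, 284 and 287 CPM at P5 and 49.5, 63.7, 56.2 and 73.6 CPM at 6W, and their regulator Trp73 read 13.9, 11.4, 13.4 and 9.82 CPM at P5 and 5.004, 2.76, 2.85 and 3.04 CPM at 6W. For both the ages did not overlap, although Reln is also made by interneurons.

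Lists for neurons of neighbouring regions gave counts near the background of 31.4% that rose and 30.6% that fell. Of 10 striatal genes 2 rose and 3 fell, of 9 thalamic genes 3 rose and 2 fell, and of 11 cortical genes 4 rose and 4 fell. Their medians lay between -0.17 and 0.25.

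**Figure D3:**
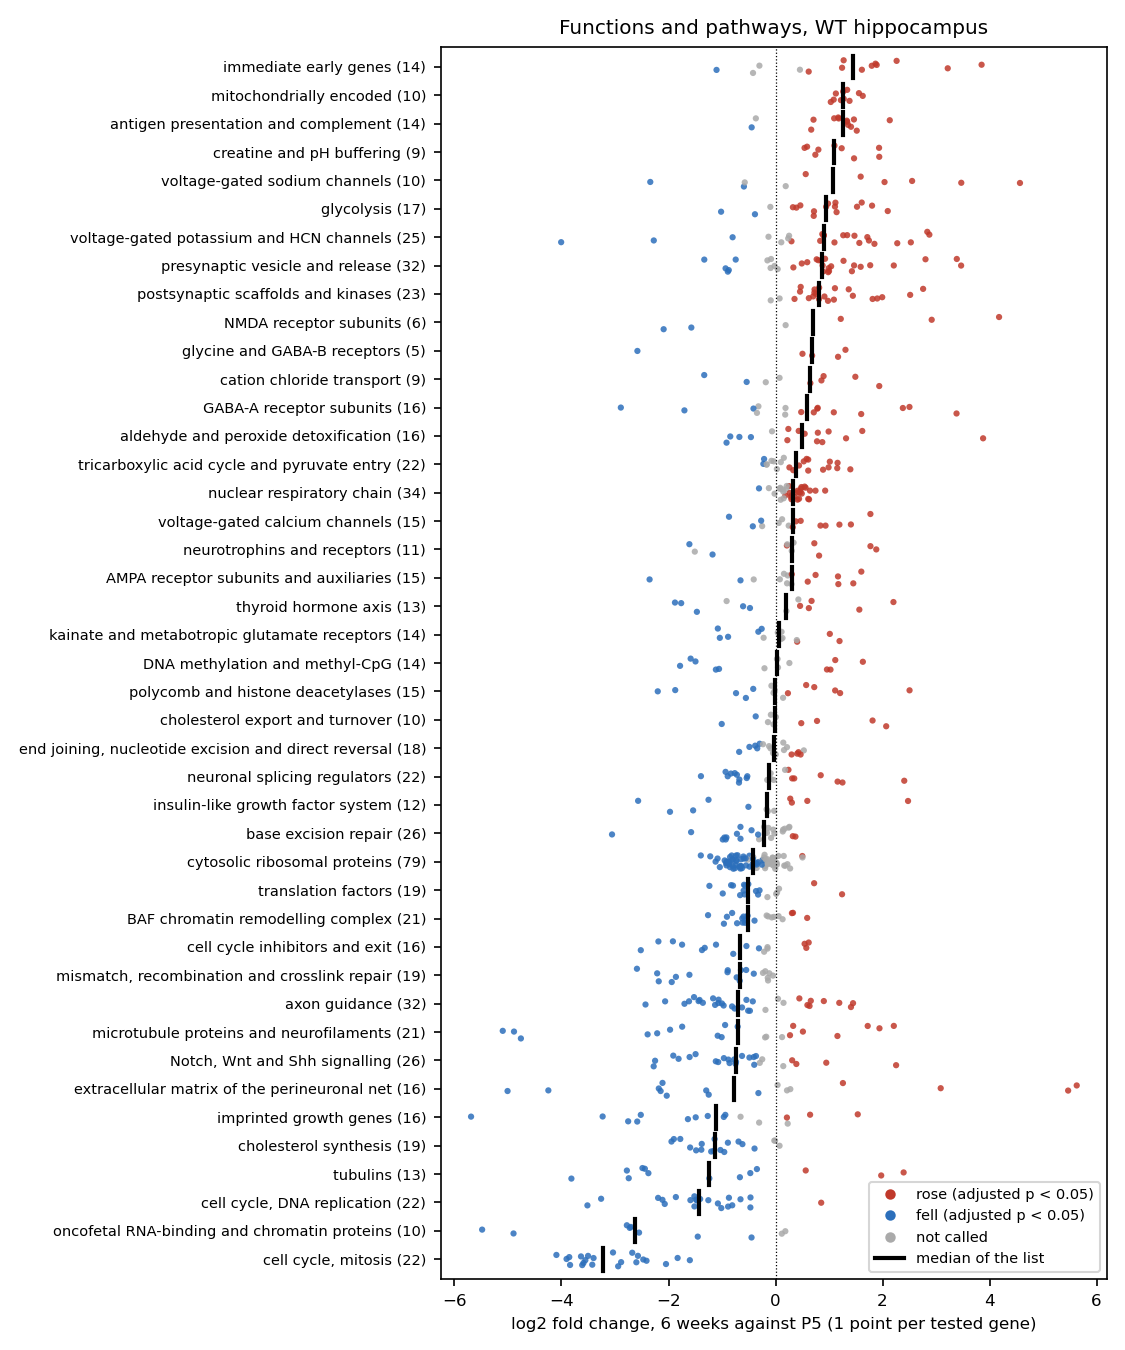
Log2 fold change from P5 to 6W of every tested member of 43 function lists, ordered by the list's median (black bar), with the number of tested genes in brackets. Mitosis lies at the bottom with a median of -3.22 and the immediate early genes at the top with a median of 1.44, and several receptor and matrix lists spread to both sides.

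Most synaptic genes rose. Of 23 postsynaptic scaffolds and kinases 21 rose and 0 fell, with a median of 0.82, and of 32 presynaptic genes 22 rose and 5 fell, with a median of 0.87. Camk2a, the alpha subunit of the plasticity kinase CaMKII, read 571, 450.3, 631 and 549 CPM at P5 and 5213, 2998, 3734 and 2945 CPM at 6W, a log2 change of 2.76 ± 0.16 (edgeR adjusted p = 2.86e-14). Its endogenous inhibitor Camk2n1 rose by 2.52, the nuclear envelope protein Syne1 by 1.99 and the spine protein Baiap2 by 1.90. Vamp1, a vesicle SNARE of fast synapses, read 6.49, 6.88, 6.89 and 5.90 CPM at P5 and 64.3, 78.3, 73.8 and 73.1 CPM at 6W, and the plasma membrane SNARE gene Snap25 read 447, 463, 515 and 603 CPM at P5 and 2085, 2518, 2557 and 2227 CPM at 6W. Cplx3 (3.39) and the fast calcium sensor gene Syt2 (2.80) rose as well. The presynaptic genes that fell were Syn3, the synapsin of developing neurons (-1.33), Stx1a (-0.93), the glutamate transporter gene Slc17a6 (VGLUT2, -0.89), Syt4 (-0.87) and Rab3b (-0.74). Slc17a7, which encodes the alternative vesicular glutamate transporter VGLUT1, rose by 1.77.

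NMDA receptors, the calcium-permeable glutamate receptors used in plasticity, had subunit genes called in both directions. Of 6 tested subunits 3 rose and 2 fell, against 31.4% and 30.6% of all tested genes, so the share that fell was near the background. Grin2a, the GluN2A subunit of adult synapses (ENSMUSG00000059003, chromosome 16, 9567898 to 9995560 on GRCm38), read 73.9, 90.3, 85.8 and 93.9 CPM at P5 and 539, 635, 781 and 646 CPM at 6W, without overlap, and its log2 change was 2.92 ± 0.17 (edgeR adjusted p = 2.20e-14). Grin2b, the GluN2B subunit that dominates early, read 1091, 1511, 1348 and 1177 CPM at P5 and 1008, 1538, 1734 and 1563 CPM at 6W. Its groups overlapped, with the lowest value of all 8 in 6W replicate 1, and it was not called (log2 change 0.19 ± 0.19, edgeR adjusted p = 0.390). Per kilobase of exon, Grin2a and Grin2b stood at 4.79 and 51.6 CPM at P5 and at 36.3 and 58.8 CPM at 6W. Grin2c, also found in astrocytes, read 1.23, 0.727, 0.607 and 1.08 CPM at P5 and 21.8, 14.7, 15.5 and 15.1 CPM at 6W, highest in 6W replicate 1. Grin3a, the GluN3A subunit of juvenile receptors, fell from 256, 276, 276 and 252 CPM at P5 to 39.6, 75.6, 52.8 and 80.6 CPM at 6W, Grin2d fell by 1.57, and the obligatory subunit gene Grin1 rose by 1.22.

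AMPA receptors carry fast excitation. Of 15 subunits and auxiliaries 7 rose and 2 fell, against 31.4% and 30.6% of all tested genes. The pore subunit gene Gria1 read 416, 415, 417 and 399.6 CPM at P5 and 805, 902, 1065 and 947 CPM at 6W, Gria3 rose by 1.45 and Gria2 by 1.17, whereas Gria4 stood at 51.3 ± 5.58 and 60.1 ± 11.3 CPM (SD, n = 4 each) and was not called. Among the auxiliaries Cacng3 rose by 1.60 and Cacng8 by 0.75, and Cacng4, which oligodendrocyte precursors also express, fell by 2.35. Shisa6 also fell (-0.65). Of 14 kainate and metabotropic receptor genes 3 rose, among them Grm2 (1.01), and 5 fell, led by Neto2 (-1.08) and Grik1 (-1.04). These shares were not far from the 31.4% that rose and 30.6% that fell over all tested genes.

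Inhibitory receptor genes were also called in both directions. Of 16 GABA-A subunits 9 rose and 3 fell, against 31.4% and 30.6% of all tested genes, so the share that fell was under the background. Gabrd, the delta subunit of tonic receptors on granule cells, read 3.31, 2.28, 2.89 and 2.18 CPM at P5 and 18.1, 14.4, 15.2 and 12.9 CPM at 6W, a log2 change of 2.50 ± 0.15 (edgeR adjusted p = 7.48e-14). Gabra4, its usual alpha partner there, rose by 1.60. All 4 6W samples were higher than all 4 P5 samples for both genes. Gabra5, the alpha subunit typical of hippocampal pyramidal cells, read 366, 416, 409.97 and 416 CPM at P5 and 445, 466, 531 and 389.8 CPM at 6W, with overlap, and was not called (log2 change 0.19 ± 0.10, edgeR adjusted p = 0.115). Gabra3 was not called either (118 ± 3.29 and 94.2 ± 29.9 CPM, SD, n = 4 each), while Gabra2 rose by 0.72 and Gabrq fell by 2.89. Glra2, the glycine receptor subunit of embryonic neurons, read 80.2, 90.2, 89.7 and 99.6 CPM at P5 and 12.9, 15.8, 13.1 and 18.02 CPM at 6W, and the other 4 of 5 glycine and GABA-B receptor genes rose, among them the synaptic beta subunit gene Glrb (1.17).

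Chloride transporters set whether GABA excites or inhibits. Slc12a5, the extruder KCC2 of mature neurons, read 100.02, 91.3, 108 and 111 CPM at P5 and 244, 286, 306 and 319.6 CPM at 6W, a log2 change of 1.49 ± 0.09 (edgeR adjusted p = 7.22e-14). Slc12a2, the importer NKCC1, did not fall: it read 74.1, 102, 55.4 and 78.1 CPM at P5 and 158, 115, 136 and 152 CPM at 6W and rose by 0.86 ± 0.14 (edgeR adjusted p = 8.85e-06). Glial cells also express Slc12a2, its highest value was in 6W replicate 1, and without that sample its change was 0.80 (edgeR adjusted p = 5.41e-05). Per kilobase of exon the level of Slc12a5 relative to Slc12a2 went from 13.8 against 7.09 CPM at P5 to 38.8 against 12.9 CPM at 6W. Car7, the neuronal carbonic anhydrase that supplies bicarbonate, rose by 1.94, and Slc12a7 (-1.33) and Slc12a4 (-0.54) fell.

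**Figure D4:**
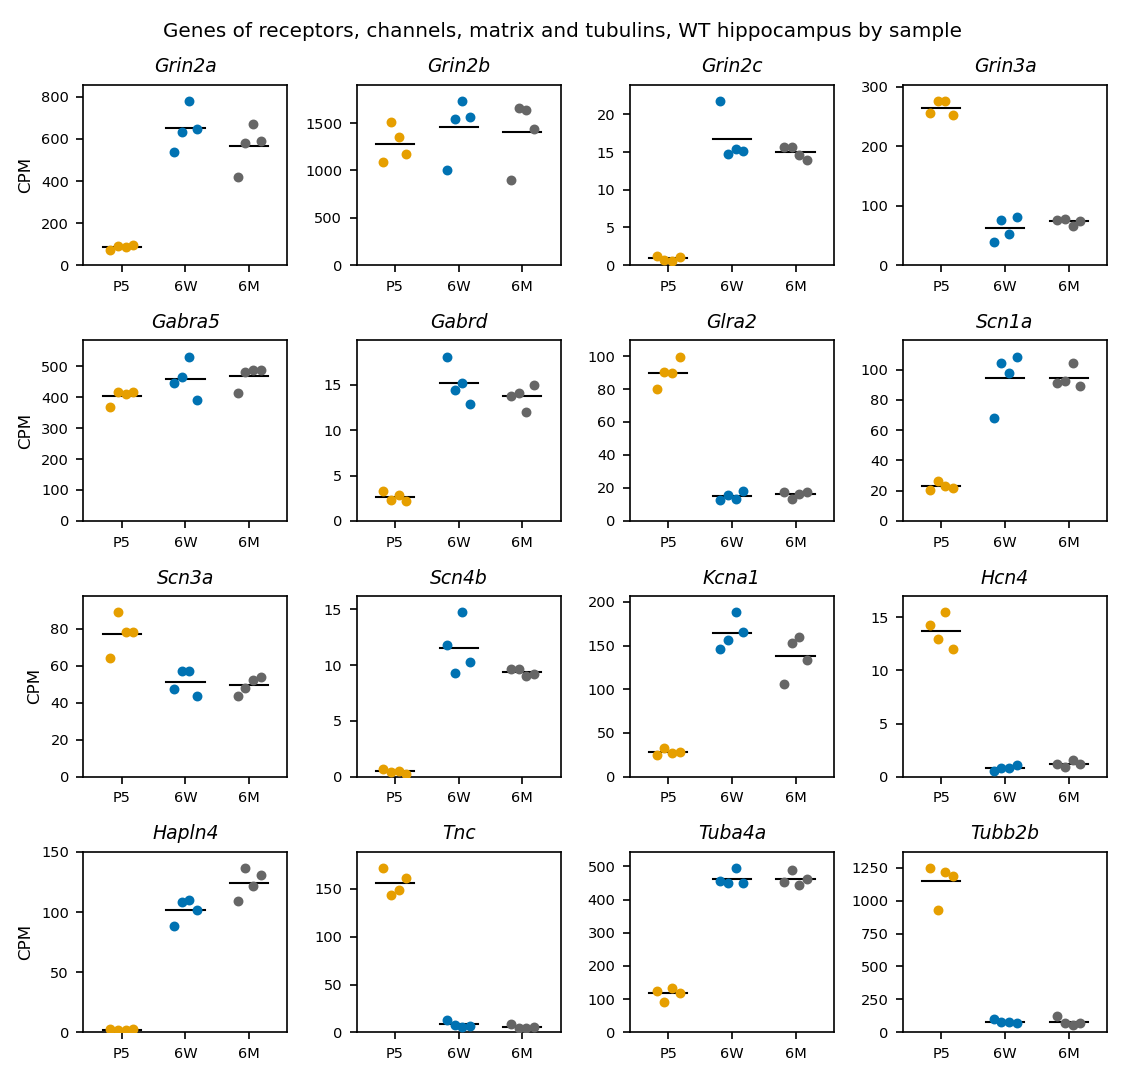
CPM of 16 genes in each WT hippocampus sample at P5, 6W and 6M, on linear axes that start at 0, with a bar at the mean of 4. Grin2a, Gabrd, Scn1a, Scn4b, Kcna1, Hapln4 and Tuba4a are higher in every 6W sample than in every P5 sample, Grin3a, Glra2, Scn3a, Hcn4, Tnc and Tubb2b are lower, Grin2c is higher with 6W replicate 1 apart, and Grin2b and Gabra5 overlap.

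Among genes of excitability, most sodium channel genes rose. Of 10 sodium channel genes 6 rose and 2 fell, against 31.4% and 30.6% of all tested genes, so the share that fell was under the background. Scn1a, the channel of fast-spiking interneurons, read 20.4, 26.7, 23.4 and 21.8 CPM at P5 and 67.8, 104, 97.98 and 109 CPM at 6W, lowest at 6W in replicate 1 but still above every P5 value. Scn8a, the channel of nodes of Ranvier and axon initial segments, read 126, 138, 145 and 134 CPM at P5 and 337, 412, 474 and 412 CPM at 6W. The beta subunit genes Scn4b and Scn2b rose by 4.57 and 3.47, and Scn4b read 0.714, 0.450, 0.500 and 0.269 CPM at P5. Scn3a, the embryonic channel, read 64.1, 88.9, 78.3 and 78.2 CPM at P5 and 47.5, 57.3, 57.01 and 43.8 CPM at 6W, and Scn9a fell by 2.34. Among 25 potassium and HCN channel genes 18 rose, led by the beta subunits Kcnab2 (2.88) and Kcnab1 (2.84), the axonal channel Kcna1 (25.3, 32.9, 27.04 and 28.4 CPM at P5 and 146, 156, 188 and 165 CPM at 6W) and the fast channel Kcnc2 (2.28). Hcn4, an HCN subunit with slow gating, read 14.2, 13.01, 15.5 and 12.03 CPM at P5 and 0.545, 0.862, 0.821 and 1.09 CPM at 6W and was 16.1-fold lower at 6W, and Hcn3 (-2.28) and Kcna3 (-0.80) fell. Of 15 calcium channel genes 8 rose, led by the beta subunits Cacnb4 (1.77) and Cacnb2 (1.41), and 3 fell, led by the T-type channel Cacna1g (-0.87), or 1 without 6W replicate 1. The shares of the potassium and calcium lists that fell were also under the 30.6% over all tested genes.

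Matrix genes moved in both directions. Perineuronal nets are lattices of hyaluronan, lecticans, link proteins and tenascins around fast-spiking neurons, and 9 of 16 genes of this matrix fell while 4 rose. The share that rose was under the 31.4% over all tested genes. Tnc, the tenascin of growing tissue, read 172, 144, 149 and 162 CPM at P5 and 12.6, 7.97, 6.18 and 6.52 CPM at 6W, a log2 change of -4.25 ± 0.19 (edgeR adjusted p = 8.56e-17). Vcan, the lectican versican, read 147, 180.2, 128 and 151 CPM at P5 and 42.7, 28.8, 31.7 and 30.8 CPM at 6W. The hyaluronan synthase gene Has2 read 9.86, 8.86, 9.001 and 11.9 CPM at P5 and 0.446, 0.302, 0.387 and 0.137 CPM at 6W, and neurocan, Ncan, fell by 2.03 and Has3 fell by 2.15. In contrast, the link protein gene Hapln4, found at inhibitory synapses and nodes, read 2.79, 2.04, 1.68 and 2.63 CPM at P5 and 88.4, 108, 109.9 and 102 CPM at 6W, and tenascin R, Tnr, rose by 1.26. Adamts4, a lectican-cutting protease of oligodendrocytes, rose by 3.09, and Hapln2, the link protein of myelinated nodes, by 5.63. Aggrecan, Acan, the lectican that defines mature nets, read 3.44, 3.36, 3.39 and 2.66 CPM at P5 and 3.96, 2.84, 2.90 and 3.48 CPM at 6W and was not called (log2 change 0.04 ± 0.19, edgeR adjusted p = 0.876).

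In the oligodendrocyte lineage myelin genes rose, and precursor genes fell more often than they rose. Of 22 mature oligodendrocyte and myelin genes 21 rose and the remaining gene, Enpp2, which the choroid plexus also makes, was not called, with 209 ± 89.1 CPM at P5 and 375 ± 257 CPM at 6W (SD, n = 4 each). Mobp read 3.80, 4.71, 0.750 and 0.688 CPM at P5 and 1602, 569, 934 and 908 CPM at 6W, without overlap, with a log2 change of 8.66 ± 0.48, which was 8.35 without 6W replicate 1 (edgeR adjusted p = 8.64e-15 and 5.89e-15). Mog (7.71), Opalin (7.53) and Mal (7.06) rose by similar amounts. Of 10 genes of committed precursors 5 rose, led by Bcas1 (3.33), and 1 fell, against 31.4% and 30.6% of all tested genes. Of 12 precursor genes 6 fell and 2 rose, or 1 rose without 6W replicate 1 or P5 replicate 2. The growth factor receptor gene Pdgfra, which defines the precursor, read 80.4, 87.98, 88.4 and 94.6 CPM at P5 and 51.7, 53.4, 42.9 and 50.6 CPM at 6W and had a log2 change of -0.82 ± 0.10 (edgeR adjusted p = 2.48e-08). The lineage factors Olig1 and Olig2 stood at 69.5 and 23.3 CPM at P5 and 72.9 and 20.8 CPM at 6W and were not called.

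Astrocyte markers rose in 17 of 24 cases and fell in 2, with a median of 0.81, and 4 fell without 6W replicate 1. Slc1a2, the glutamate transporter GLT-1 that clears synapses, read 938, 1159.8, 1204 and 1178 CPM at P5 and 6766, 5357, 5249 and 4754 CPM at 6W, and the calcium-binding protein gene S100b read 8.43, 6.44, 7.75 and 7.39 CPM at P5 and 111, 74.5, 70.9 and 72.2 CPM at 6W. Both were highest in 6W replicate 1, and without it their log2 changes were 2.19 and 3.27, against 2.30 and 3.45 with it. The connexin gene Gjb6 (3.42) and the receptor gene Ntsr2 (3.31) rose to a like degree. The related transporter gene Slc1a3, present in radial glia from early stages, read 446 ± 20.4 CPM at P5 and 500.3 ± 67.9 CPM at 6W (SD, n = 4 each) and was not called, and Mfge8 (-0.70) and Chrdl1 (-1.10) fell.

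Microglia markers rose in 17 of 18 cases and fell in 1, with a median of 1.37, or 1.18 without 6W replicate 1, when 17 still rose. P2ry12, the purine receptor of surveying microglia, read 21.8, 21.5, 17.9 and 23.9 CPM at P5 and 99.6, 68.2, 64.7 and 55.1 CPM at 6W, and Tmem119 rose from 1.77 ± 0.265 CPM at P5 to 12.4 ± 2.05 CPM at 6W (SD, n = 4 each). Neither gene overlapped between ages. Genes of the phagocytic state that microglia show around the first postnatal week went the other way, with 7 of 10 lower at 6W, among them the lipase gene Lpl (326, 305, 370.2 and 478 CPM at P5 and 68.4, 61.2, 74.98 and 57.99 CPM at 6W), Fabp5 (-2.24) and Spp1 (-1.66). In this list Gpnmb rose by 1.01, a call that was lost when any of 5 single samples was left out. Lpl and Fabp5 are also made by neurons or other glia, so the cells behind them are not known. Of 14 antigen presentation and complement genes 12 rose and 1 fell, with the rises led by the complement genes C4b (2.14) and C1qb (1.52), with the class I gene H2-K1 (1.41). C4b and H2-K1 have close paralogues that may share reads with them.

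Vessel genes were also called in both directions. Of 16 endothelial genes 5 rose and 7 fell, against 31.4% and 30.6% of all tested genes, so the share that rose was near the background. The transporter gene Slco1a4, a product of the mature blood-brain barrier, read 9.57, 11.2, 7.25 and 9.76 CPM at P5 and 58.01, 54.2, 48.3 and 48.9 CPM at 6W, and Ly6c1 read 6.88, 4.81, 4.89 and 7.03 CPM at P5 and 36.02, 33.9, 33.3 and 36.4 CPM at 6W. The efflux pump gene Abcb1a rose by 1.35, and the junction gene Cdh5 (-1.28) and the growth factor receptor gene Kdr (-1.18) fell. Of 11 genes of sprouting tip cells 8 fell, led by Nid2 (-3.44) and Cxcr4 (-3.03), which is also in the Cajal-Retzius list, and with the basement membrane collagen gene Col4a1 at 77.8, 77.8, 94.7 and 88.7 CPM at P5 and 20.01, 19.9, 18.3 and 21.7 CPM at 6W. Apln (0.78) and Mcam (0.72) rose. Mural cell markers gave 3 rises, led by the smooth muscle myosin gene Myh11 (1.90), and 6 falls of 10, led by Notch3 (-1.49). The share of mural genes that rose was near the 31.4% over all tested genes.

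Genes of surrounding tissues fell or were not called, apart from 1 choroid plexus gene. Of 14 fibroblast and meningeal genes 6 fell and 0 rose, against 30.6% and 31.4% of all tested genes. More of them fell when no filter on low counts was used. Col3a1 read 20.6, 28.4, 37.5 and 37.4 CPM at P5 and 3.07, 4.52, 1.64 and 5.29 CPM at 6W. Of 9 ependymal genes 6 fell, led by the cilium genes Pifo (-2.49) and Foxj1 (-2.23), and of 12 choroid plexus genes 7 fell and 1 rose. The choroid plexus falls numbered 4 without 6W replicate 1, 2 or 3, and the rise was lost without 6W replicate 4. Ttr itself read 7343, 7349.99, 1929 and 3736 CPM at P5 and 44.98, 16.9, 55.8 and 1063 CPM at 6W, with replicate 4 of 6W far above the other 6W samples. Of 7 blood genes 1 fell and 0 rose, with 0 to 2 falls when single samples were left out. How much of the choroid plexus, meningeal and ependymal change came from the dissection was not tested.

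Most genes of energy metabolism rose. Of 17 glycolytic genes 14 rose and 2 fell, with a median of 0.95. The neuronal enolase gene Eno2 (2.10), the astrocyte aldolase gene Aldoc (1.80) and Aldoa (361 ± 54.4 CPM at P5 and 1103 ± 94.3 CPM at 6W, SD, n = 4 each) led the rises. Ldhb, the lactate dehydrogenase subunit favoured by oxidative cells, rose by 1.52, whereas Ldha, its glycolytic counterpart, fell by 0.38 and the hexokinase gene Hk2 fell by 1.02. In the tricarboxylic acid cycle 13 of 22 genes rose and 2 fell (1 to 4 when single samples were left out), with the rises led by the succinate dehydrogenase gene Sdha, which read 86.9, 90.96, 85.2 and 107 CPM at P5 and 224, 254, 240.1 and 259 CPM at 6W. Of 34 nuclear respiratory chain genes 23 rose and 1 fell (2 without P5 replicate 2), with a median of 0.33. All 10 tested mitochondrially encoded genes rose, with mt-Nd4 at 6560.2, 6236, 5700.2 and 6340.4 CPM at P5 and 28221, 12661, 14486 and 9422 CPM at 6W, by far the highest in 6W replicate 1, and without that sample 9 of them rose. Of these genes mt-Co2, mt-Co3 and mt-Atp6 read under 2 CPM in every P5 and 6W sample. How reads with several matches were counted is not given in the sources used here, so the 3 low genes and the mitochondrial shares of counts are uncertain. In the creatine and pH buffering list 9 of 9 genes rose, led by the carbonic anhydrase genes Car7 (1.94) and Car2 (1.94).

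Most genes of cholesterol synthesis fell. Of 19 cholesterol synthesis genes 16 fell and 0 rose, with a median of -1.14. Fdps, which makes farnesyl diphosphate, read 23.8, 17.3, 20.6 and 16.4 CPM at P5 and 4.71, 5.86, 4.44 and 5.19 CPM at 6W, a log2 change of -1.94 ± 0.16 (edgeR adjusted p = 2.07e-11). Mvd (-1.78) and the epoxidase gene Sqle (-1.60) also fell. Cyp46a1, the neuronal hydroxylase through which the brain disposes of cholesterol, read 16.9, 12.9, 19.04 and 13.9 CPM at P5 and 49.6, 57.3, 54.2 and 59.4 CPM at 6W. It belongs to a list of 10 genes of cholesterol export and turnover, of which 4 rose and 2 fell (1 without 6W replicate 2), with a median of -0.02, not far from the 31.4% and 30.6% over all tested genes. The exporter gene Abcg1 rose by 2.07, and the exporter gene Abca1 fell by 1.01. Of 79 cytosolic ribosomal protein genes 46 fell and 1 rose, with a median of -0.42, and without 6W replicate 1 55 fell and 0 rose. Rplp0 read 902, 735, 709.5 and 580.1 CPM at P5 and 380.4, 244, 239.6 and 248 CPM at 6W, highest at 6W in replicate 1. Many ribosomal protein genes have near-identical pseudogenes that can take their reads, so single values in this list are uncertain.

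Translation factors fell in 13 of 19 cases and rose in 2, and the genes of both forms of the elongation factor eEF1A moved in opposite directions. Eef1a1, the widespread form, read 2012, 1907, 1928 and 2007 CPM at P5 and 1318, 1011, 1047 and 1149.6 CPM at 6W, whereas Eef1a2, the form of mature neurons and muscle, read 202, 121, 212 and 185 CPM at P5 and 388, 419, 438 and 460.5 CPM at 6W. Neither overlapped between the ages, and the log2 changes were -0.80 ± 0.11 (edgeR adjusted p = 3.48e-07) and 1.24 ± 0.13 (edgeR adjusted p = 2.27e-09). Eif4a2 rose by 0.72 and its paralogue Eif4a1 fell by 0.83.

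Among regulators of RNA and chromatin, single genes moved in both directions. Of 22 splicing regulators 7 rose, near the 31.4% over all tested genes, and 10 fell, with a median of -0.12. Mbnl2, which promotes adult splice forms, read 85.8, 104, 85.04 and 90.9 CPM at P5 and 438, 485, 564 and 450.3 CPM at 6W, and Ptbp1, a repressor of neuronal exons, read 73.9, 56.5, 64.3 and 60.4 CPM at P5 and 27.7, 21.3, 23.7 and 24.5 CPM at 6W. Rbfox1 (1.25) and Mbnl1 (1.16) also rose. In the BAF chromatin remodelling complex 12 of 21 genes fell and 3 rose. Smarca2 (BRM), an alternative ATPase of the complex, rose by 0.59 and the other ATPase gene Smarca4 (BRG1) fell by 0.62. The progenitor subunit gene Actl6a (-0.57) and its neuronal counterpart Actl6b (-0.56) both fell. Dnmt3a, the de novo DNA methyltransferase that is active in young neurons, read 103, 123, 113 and 99.1 CPM at P5 and 36.02, 34.4, 35.5 and 39.7 CPM at 6W, and Tet1 (-1.78) and Tet3 (-1.11) fell while the activity-induced Gadd45b (1.63) and the methyl-CpG binder Mbd2 (0.96) rose. Within the polycomb system Ezh2, the methyltransferase of dividing cells, read 17.03, 19.9, 18.2 and 23.5 CPM at P5 and 5.45, 3.88, 3.91 and 3.93 CPM at 6W, Ezh1, its counterpart in resting cells, read 22.5, 24.1, 23.6 and 21.1 CPM at P5 and 46.4, 50.9, 58.5 and 54.95 CPM at 6W, and Cbx7 rose by 2.51 while Cbx2 fell by 1.87.

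In each list of DNA repair genes the share that rose was under the 31.4% over all tested genes. Mpg, the glycosylase targeted in the KO mice of the series (ENSMUSG00000020287, chromosome 11, 32226505 to 32232700 on GRCm38), read 8.89, 7.65, 8.25 and 7.15 CPM at P5 and 6.49, 4.48, 4.93 and 4.44 CPM at 6W in these WT samples, a log2 change of -0.66 ± 0.17 (edgeR adjusted p = 0.00166). Of 26 base excision repair genes 11 fell, 2 rose and 13 were not called, against 30.6% that fell and 31.4% that rose over all tested genes. Neil3, a glycosylase of proliferating cells, read 2.30, 2.32, 2.86 and 3.32 CPM at P5 and 0.347, 0.302, 0.290 and 0.341 CPM at 6W, and the replicative ligase gene Lig1 read 16.6, 14.01, 13.5 and 14.6 CPM at P5 and 4.90, 5.13, 3.91 and 5.67 CPM at 6W. The thymine glycosylase gene Tdg (-0.99), the ligase gene Lig3 (-0.96) and the abasic endonuclease gene Apex1 (-0.33) fell. Both rises were polymerases, Polb, which fills the repaired gap (30.3, 31.7, 33.9 and 29.2 CPM at P5 and 42.7, 41.97, 38.3 and 39.01 CPM at 6W), and the mitochondrial Polg (0.32). Of 19 mismatch, recombination and crosslink repair genes 13 fell and 0 rose, with Fanci (-2.59) and Fanca (-2.18) among the falls. End joining, nucleotide excision and direct reversal genes gave 4 rises and 5 falls of 18, shares at or under those of all tested genes, with a median of -0.02, and the falls numbered 3 without 6W replicate 2. In the aldehyde and peroxide list 11 of 16 genes rose, led by the retinal dehydrogenase gene Aldh1a1 (6.10, 5.81, 5.39 and 6.29 CPM at P5 and 137, 63.7, 87.4 and 60.1 CPM at 6W), and 4 fell, among them the formaldehyde-oxidising Adh5 (-0.92).

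Genes of hormone and growth factor signalling were called in both directions. Thyroid hormone drives postnatal brain maturation. Its induced transcription factor gene Klf9 read 24.2, 23.7, 24.8 and 30.1 CPM at P5 and 106, 109, 139 and 120.00 CPM at 6W, and the receptor gene Thrb rose by 1.57, whereas the receptor gene Thra fell by 0.61. In all, 5 of 13 genes of this axis rose and 5 fell, shares not far from the 31.4% and 30.6% over all tested genes. Of 11 neurotrophin genes 5 rose and 2 fell. Bdnf, the activity-dependent neurotrophin, read 14.2, 12.2, 14.2 and 18.5 CPM at P5 and 55.7, 43.6, 53.9 and 49.3 CPM at 6W, its sorting receptor gene Sort1 rose by 1.88, and Ngfr fell by 1.61. Of 14 immediate early genes, which neurons induce within minutes of activity, 10 rose and 1 fell, or 2 fell without 6W replicate 3. Arc, which acts at active synapses, read 2.98, 2.21, 4.14 and 2.54 CPM at P5 and 29.8, 30.9, 69.1 and 41.4 CPM at 6W, without overlap. How the animals were handled before dissection is not given in the sources used here.

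The hippocampal step was tested against the same age step in WT prefrontal cortex. The step differed for 2165 of 18849 genes (11.5%), being higher in hippocampus for 959 (5.09%) and lower for 1206 (6.4%). Of these 2165 genes 977 were called in the same direction in both tissues and differed in size, and 184 were called in opposite directions. The step was called in hippocampus alone for 443, in prefrontal cortex alone for 556 and in neither tissue for the few others. CPM in this comparison are scaled over all 48 samples and differ slightly from those above. The samples may pair by animal across tissues, which the labels do not say.

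Among genes whose mean log2 CPM was 3 or more, the higher steps in hippocampus were led by Dsp, which stood at 5.01 ± 0.674 CPM at P5 and 49.4 ± 9.23 CPM at 6W in hippocampus, against 1.18 ± 0.540 and 0.264 ± 0.163 CPM in the cortex (SD, n = 4 each), an interaction of 5.47 ± 0.59 on the log2 scale (edgeR adjusted p = 3.31e-09). The neurotrophin gene Ntf3 (3.23), the cilium receptor gene Gpr161 (2.90), Lct (2.80), Thsd4 (2.71) and Runx2 (2.45) followed. Ntf3 had no called change in the hippocampus: it stood at 12.6 ± 1.88 and 15.9 ± 4.44 CPM there and at 17.2 ± 6.84 and 2.30 ± 0.897 CPM in the cortex. The granule cell genes C1ql2 (4.80) and Tdo2 (4.70), with a mean under that limit, had larger interactions than Ntf3. Among pyramidal cell genes Neurod6 stood at 279.6 ± 37.8 and 277 ± 51.1 CPM in hippocampus against 365 ± 124 and 105 ± 21.4 CPM in prefrontal cortex (interaction 1.78 ± 0.25, edgeR adjusted p = 1.04e-06), and Pou3f1 (1.66) also had a higher step without a called change in hippocampus. Gabra5 stood at 404 ± 23.8 and 459 ± 58.3 CPM in hippocampus and at 301 ± 56.3 and 128 ± 6.56 CPM in prefrontal cortex (interaction 1.41). In the myelin list 7 of 22 genes rose more in hippocampus, with an interaction of 1.36 for Mbp, and 0 rose less. Of the 7, Fa2h lost the call when any of 3 single samples was left out and Ugt8a when any of 4 was, both without 6W replicate 1 of the hippocampus.

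Among genes above the same limit, the lower steps in hippocampus were led by the cholecystokinin receptor gene Cckbr, which stood at 8.71 ± 1.30 and 9.30 ± 2.91 CPM in hippocampus and at 6.72 ± 1.45 and 75.7 ± 11.5 CPM in the cortex, an interaction of -3.38 ± 0.28 (edgeR adjusted p = 6.27e-12). Exph5 (-3.38), Rasgef1c (-3.30), the heparan sulfatase gene Sulf1 (-3.29), the carbonic anhydrase gene Car12 (-3.27) and the neurotensin gene Nts (-3.15) came next. The peptide gene Cck itself rose less in hippocampus (-1.65), the juvenile NMDA subunit gene Grin3a fell further there (-1.10), and the thyroid hormone-binding gene Crym (-2.41) and the guidance ligand gene Slit3 (-2.49) also had lower steps. Of 19 progenitor genes 3 had a lower step in hippocampus and 0 a higher one. Neurog2, whose mean lay under the limit, went from 4.37 ± 0.614 to 0.784 ± 0.200 CPM in hippocampus and was at 0.244 ± 0.0390 and 0.852 ± 0.183 CPM in prefrontal cortex (-4.25), and Hopx rose less in hippocampus, from 45.8 ± 8.09 to 68.8 ± 19.1 CPM against 6.22 ± 0.359 to 30.8 ± 4.15 CPM (-1.72). Of 24 astrocyte genes 9 had a lower step in hippocampus and 0 a higher one, with Slc1a2 at -0.81. Of the 9, S100b lost the call when any of 8 single samples of either tissue was left out, Ntsr2 when any of 5 was and Sox9 without P5 replicate 3 of the prefrontal cortex.

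**Figure D5:**
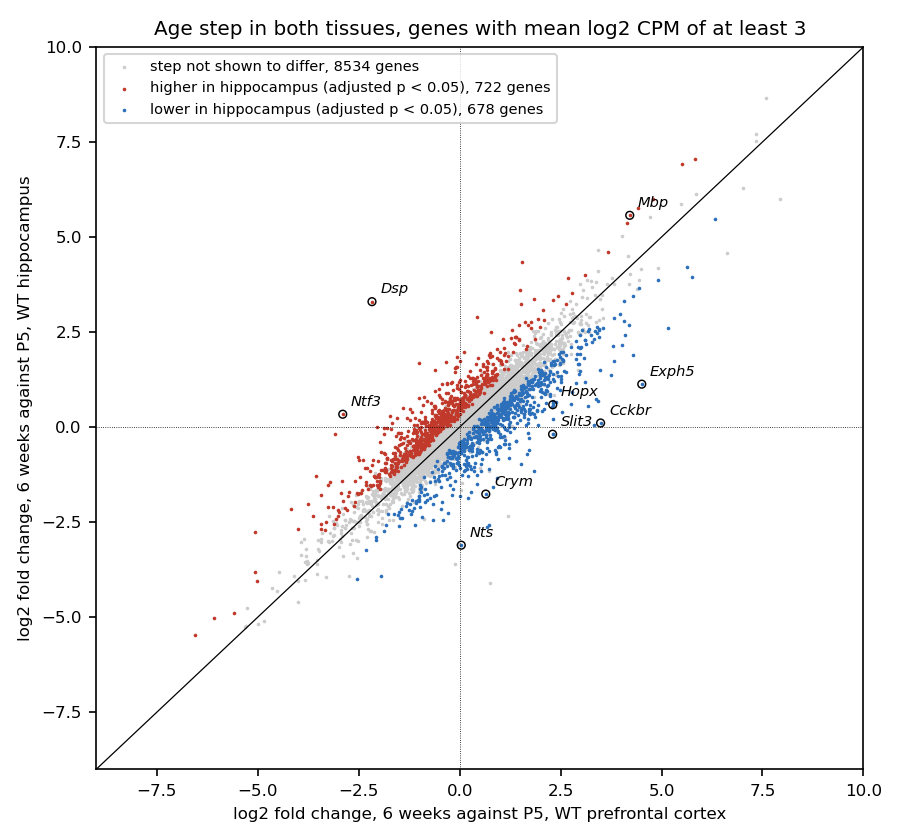
Log2 fold change from P5 to 6W in WT hippocampus against that in WT prefrontal cortex for 9934 genes whose mean log2 CPM was 3 or more, with genes whose steps differed in colour (722 higher and 678 lower in hippocampus). Most points lie along the diagonal, Dsp lies far above it and Cckbr, Exph5 and Nts lie below it.

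The same step was tested between WT and KO hippocampus. Mpg, the targeted gene, stood at 7.98 ± 0.751 and 5.08 ± 0.963 CPM in WT and at 1.35 ± 0.316 and 1.73 ± 0.205 CPM in KO at P5 and 6W (SD, n = 4 each), so KO levels were lower at both ages and were not 0. The step differed for 1 of 17786 genes by edgeR (0.00562%), with 764 at an unadjusted p-value under 0.05, for 7 by DESeq2 and for 155 when no filter on low counts was used. The gene was Pttg1, securin, an inhibitor of sister chromatid separation, which went from 12.7 ± 2.31 to 26.4 ± 1.63 CPM in WT and from 6.45 ± 0.739 to 0.871 ± 0.397 CPM in KO (SD, n = 4 each), an interaction of 3.96 ± 0.25 on the log2 scale (edgeR adjusted p = 1.01e-10). Its rise in WT was unlike the mitosis genes above, all of which fell. Whether loss of Aag itself lies behind the Pttg1 difference was not tested.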

How the data were processed

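Poly(A) RNA from mouse hippocampus and prefrontal cortex was sequenced as single reads of 75 bases, per the labels' protocols, from 48 samples, of which 8 are compared here. The deposited values are counts of reads per gene for 54838 genes, made by the authors; the submitters' processing notes name bcl2fastq 2.20.0.422, STAR 2.4.0, HTSeq and GRCm38, and the treatment of strand and of reads with several matches is not given in the sources used here. Counts were analysed with edgeR 4.0.16 in R 4.3.3: genes were kept by filterByExpr, scaled by TMM and tested by the quasi-likelihood test over the 24 hippocampus samples in 6 groups (18 residual degrees of freedom), or over all 48 samples for the tissue comparison, with Benjamini-Hochberg adjustment and a threshold of 0.05. CPM values are scaled by TMM, and CPM per kilobase use the union of exons in GENCODE M21. The 4 samples of a group were taken as separate animals, per the series' design text. The fits were also run on simulated counts in which a small set of genes was changed. Most genes did not change there, unlike here, so that run does not test the scaling in these data.

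The members and the gene lists were chosen with earlier results of these data known. Genes were named as the 12 largest rises and falls among genes whose mean log2 CPM was 5 or more and whose ages did not overlap, up to 4 called members per list and direction, all members of 9 families, and the 6 largest interactions per direction among genes whose mean log2 CPM was 3 or more and called list members. Mki67, Plk1, Prox1, Sox2, Enpp2, Olig1, Olig2 and Rab3b were named after their values were seen. Some genes that the rule names are not reported here. Alternatives were another scaling, another filter, DESeq2 1.42.0, other sample sets, a replicate block and leaving out each sample.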

Additional observations from a re-analysis of the deposited data

Results flagged for a closer look

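Single samples lay apart from the other 3 of their group in 18 of 178 groups of values tested, and chance gives about 1 in 20. Of these 8 fell in 6W replicate 1, the sample with the highest mitochondrial share. It was high for Tubb2b (100.1 CPM), Trp73 (5.00), Grin2c (21.8), S100b (111), Rplp0 (380.4), Ezh2 (5.45) and the summed astrocyte markers (15676), and low for Mapt (256). In 6W replicate 4 Ttr (1063 CPM) and the summed choroid plexus markers (1252) were high, and in 6W replicate 3 Tuba4a (494) was high. In P5 replicate 4 Igf2bp3 (5.96 CPM), C1ql2 (1.05) and Klf9 (30.1) were high and Gria1 (399.6) and Acan (2.66) low. In P5 replicate 1 Gabra5 (366 CPM) and Slc1a2 (938) were low. The directions of the called age steps of these genes did not depend on the sample that stood apart.

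The change from P5 to 6W differed between WT hippocampus and WT prefrontal cortex by the interaction test. It was higher in hippocampus, on the log2 scale, for Dsp (5.47), C1ql2 (4.799), Tdo2 (4.70), Ntf3 (3.23), Gpr161 (2.90), Lct (2.80), Thsd4 (2.71), Runx2 (2.45), Neurod6 (1.78), Pou3f1 (1.66), Gabra5 (1.41) and Mbp (1.36). It was lower for Neurog2 (-4.25), Cckbr (-3.38), Exph5 (-3.38), Rasgef1c (-3.30), Sulf1 (-3.29), Car12 (-3.27), Nts (-3.15), Slit3 (-2.49), Crym (-2.41), Hopx (-1.72), Cck (-1.65), Grin3a (-1.10) and Slc1a2 (-0.81). Between WT and KO hippocampus the change differed for Pttg1 (3.96).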

How the results depend on the processing

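Across 15 alternatives the number of genes called from P5 to 6W lay between 10183 and 11338, and from 10427 to 10897 when single samples were left out. None of the 11024 called genes tested again took the opposite sign. The scaling moved the median over all genes by at most 0.03 on the log2 scale. The replicate numbers were not shown to pair the P5 and 6W samples throughout. The deviations of same-numbered samples correlated by 0.23, 0.22, -0.02 and -0.21, and 2 of 4 samples correlated best with their own number. A pairing of the 6W with the 6M samples, or of WT with KO, was not tested. With a replicate block 11338 genes were called. The tissue interaction gave 1959 to 2436 genes, 2129 with the animal as a replicate block, 2326 with the replicate block and 1777 to 2343 without single samples. The genotype interaction gave 155 genes with no filter on low counts (15 higher, 140 lower in WT) and 7 by DESeq2 (1 higher, 6 lower), against 1, and 1 to 3 without single samples. The cause of these shifts was not tested. Of the age step genes named by the rule or after it, 582 in number, 526, called or not, stayed on the same side of the threshold under all 15 alternatives, 34 lost a call under at least 1, 22 gained one under at least 1, and 0 reversed. Of 201 tissue interaction genes 63 lost the call under at least 1 alternative and 138 kept it. Gabra5 was called without 6W replicate 4, Gria4 without 6W replicate 1, and Gabra3 without the low-count filter, without 6W replicate 2 and without 6W replicate 4. Of 130 list counts 18 moved by over 1.5 times under some setting. The granule cell fall, Neurod2, was lost without 6W replicates 2 or 4 or P5 replicates 1, 3 or 4, and fibroblast falls numbered 10 with no filter on low counts. Without 6W replicate 1 astrocyte falls numbered 4, calcium channel falls 1, insulin-like growth factor rises 2 and precursor rises 1. Choroid plexus falls numbered 4 without 6W replicates 1, 2 or 3. With 4 samples a group and a floor of 0.101 to 0.139 CPM, lower transcripts are not resolved.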
